A study of Mus musculus with 2 samples.

Results

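The 5p arms of the miRNA cluster that runs from Mir290a to Mir295 were measured in exosomes of a murine pancreatic cancer cell line (KPC-exosomes) and of a murine pancreatic ductal epithelial cell line (MPDC-exosomes). They comprised 9 of the 1881 mouse miRNAs on the arrays. A miRNA was taken as a member where the name in the array's miRNA column was that of a 5p arm of this cluster, which gave mmu-miR-290a-5p, mmu-miR-290b-5p, mmu-miR-291a-5p, mmu-miR-291b-5p, mmu-miR-292a-5p, mmu-miR-292b-5p, mmu-miR-293-5p, mmu-miR-294-5p and mmu-miR-295-5p (the prefix is left out below). The cluster was selected on its total probe signals, with its difference between these same arrays known, so that difference is given as a description. KPC cells were derived from a pancreatic ductal adenocarcinoma of mice carrying KrasLSL-G12D/+, Trp53LSL-R172H/+ and Pdx1-Cre, and were grown in RPMI-1640 with 20% FBS. MPDC cells were a purchased line grown in DMEM with 10% FBS, and their genotype and strain are not given in the sources used here. Exosomes were collected from the supernatants by differential ultracentrifugation, and 0.5 µg of RNA per preparation was labelled with Cy3. KPC-exosomes and MPDC-exosomes had 1 array each, both on 1 slide, so no difference has a replicate check and no test across samples was made. Every ± below comes from the scanner software's error of each probe and holds no spread between preparations. For bright member probes this error was a near constant share of the signal, so it is not the spread of their spots. The 13-base probe of miR-294-5p, for example, had 180 ± 18.0 in MPDC-exosomes, where its spots had a coefficient of variation of 0.27%.

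A miRNA hairpin is cut into 2 short RNAs, the 5p arm and the 3p arm, and in most hairpins 1 arm is loaded preferentially into the silencing complex. This cluster is abundant in mouse embryonic stem cells and early embryos, and is switched off as these cells differentiate. Its 3p arms, several of which share the seed AAGUGC, are the arms best known from stem cells, where they promote rapid passage through the cell cycle, and the 5p arms are described much less.

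Within this cluster the 5p arms differed in direction by strand. Of the 7 members on the plus strand of chromosome 7, 6 were at least 2-fold lower in KPC-exosomes after normalization, where 24.6% of the 1077 miRNAs detected on at least 1 array were so called. Before any normalization all 7 were, where 64.8% of those miRNAs were. The 2 members on the minus strand, miR-290b-5p and miR-292b-5p, passed the detection threshold on the KPC-exosome array alone. The mature sequences are shown here because the members are close relatives at their 5′ end and because the minus-strand members are the mirror of plus-strand hairpins. Sequences and positions are those of RefSeq on GRCm38.p6, written 5′ to 3′, and the capitals mark the seed, bases 2 to 8. All 9 members matched an entry.
miR-290a-5p, chr7:3218639-3218660, plus strand: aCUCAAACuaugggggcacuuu
miR-292a-5p, chr7:3219200-3219221, plus strand: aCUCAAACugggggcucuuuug
miR-293-5p, chr7:3220356-3220377, plus strand: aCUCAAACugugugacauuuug
miR-294-5p, chr7:3220655-3220676, plus strand: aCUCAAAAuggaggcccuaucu
miR-295-5p, chr7:3220779-3220800, plus strand: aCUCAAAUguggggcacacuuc
miR-291a-5p, chr7:3218932-3218953, plus strand: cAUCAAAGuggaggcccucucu
miR-291b-5p, chr7:3219494-3219515, plus strand: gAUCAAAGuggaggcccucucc
miR-292b-5p, chr7:3219237-3219259, minus strand: aCUCAAAAccuggcggcacuuuu
miR-290b-5p, chr7:3218674-3218695, minus strand: gCUUAAAAcuaggcggcacuuu

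The 9 members carried 5 seeds. The seed CUCAAAC was shared by miR-290a-5p, miR-292a-5p and miR-293-5p, CUCAAAA by miR-294-5p and miR-292b-5p, and AUCAAAG by miR-291a-5p and miR-291b-5p, while miR-295-5p (CUCAAAU) and miR-290b-5p (CUUAAAA) each had a seed of their own. None of the other miRNAs on the arrays that have a RefSeq sequence held any of these 5 seeds. The letters UCAAA at bases 3 to 7 were present in 8 of the 9 members, miR-290b-5p being the exception, and in 8 of the 1608 array miRNAs with a RefSeq sequence (0.498%), which are these same 8 members. The array miRNAs without a RefSeq sequence were not searched. The seed did not follow the direction of the difference, since CUCAAAA belonged to miR-294-5p, which was detected in MPDC-exosomes only, and to miR-292b-5p, which was detected in KPC-exosomes only.

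All 9 hairpin genes overlap the RefSeq gene Nlrp12, and 7 of them, all but Mir290a and Mir290b, lie inside the long non-coding RNA gene D7Ertd143e. The hairpins Mir290b and Mir292b are annotated on the strand opposite to Mir290a and Mir292. All 22 bases of miR-290b-5p pair with the hairpin Mir290a, and the same 22 bases pair with its 3p arm, miR-290a-3p. All 23 bases of miR-292b-5p pair with the hairpin Mir292. The 3p arm shown for comparison lies at the same place as miR-290b-5p on the other strand, again with the seed in capitals.
miR-290a-3p, chr7:3218674-3218697, plus strand: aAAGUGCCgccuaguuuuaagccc

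Each member was measured by 2 or 4 probes, printed as 30 spots in all, and there were 32 member probes of 10 to 22 bases. A probe was detected where its total signal, a background-subtracted intensity in arbitrary units, exceeded 3 times its error. By this threshold 19 member probes were detected in KPC-exosomes and 27 in MPDC-exosomes, against 35% and 48.2% of all 4415 miRNA probes. In KPC-exosomes the weakest detected probe was the 15-base probe of miR-291a-5p at 3.79 errors, and the strongest below the threshold was the 12-base probe of miR-292a-5p at 2.70 errors. In MPDC-exosomes the 11-base probe of miR-295-5p was detected at 3.66 errors, and the 12-base probe of miR-291a-5p missed the threshold at 2.61 errors. Total signals of the detected probes were added up for each miRNA. Of the 9 members 7 were detected in KPC-exosomes and 7 in MPDC-exosomes, against 41% and 54.8% of all miRNAs. Both arrays detected 5 members, KPC-exosomes alone 2 and MPDC-exosomes alone 2, where 4.27% and 28.3% of the 1077 miRNAs detected on at least 1 array were seen on that array alone.

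**Figure D1:**
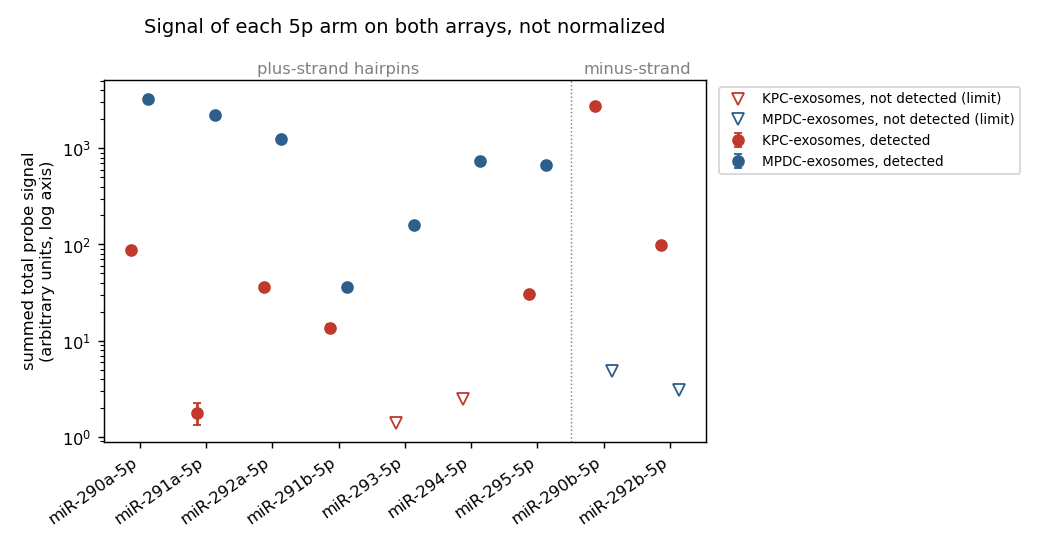
Summed total probe signal of each 5p arm (arbitrary units, log axis, not normalized) on the KPC-exosome array (red) and the MPDC-exosome array (blue). Bars are scanner errors and mostly smaller than the points, and open triangles mark the limit where a miRNA was not detected. All 7 plus-strand members were brighter in MPDC-exosomes, and both minus-strand members were brighter in KPC-exosomes, with miR-290b-5p at 2760.

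Differences are given on the log2 scale as KPC-exosomes minus MPDC-exosomes. The arrays were quantile normalized, which makes their signal distributions equal, and the values before normalization stand beside them. The median difference of the 726 miRNAs detected on both arrays was -1.37 before and 0.53 after normalization, and that of the 4 spike-in controls detected lay between -0.31 and 0.38 before and between 1.18 and 2.43 after. For a miRNA detected on 1 array only, the value is a bound, taken against the lowest detected signal of the other array or the miRNA's own undetected signal there, whichever was higher. The error of that undetected signal was not added, so a bound holds only against the limit as given. In these bulk preparations, fewer exosomes of a kind and less RNA per exosome cannot be told apart.

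Among the plus-strand members detected on both arrays, miR-290a-5p had a signal of 88.5 ± 4.56 in KPC-exosomes and 3209 ± 236 in MPDC-exosomes. It was lower in KPC-exosomes by 3.52 ± 0.13 after normalization, an 11.4-fold difference, and the difference was -5.18 before. miR-292a-5p, which shares its seed, had signals of 36.5 ± 2.51 and 1234 ± 97.5. Its difference of -3.37 ± 0.15 (-5.08 before normalization) was close to that of miR-290a-5p, the gap lying within the errors of both. miR-295-5p had signals of 30.4 ± 2.14 and 662 ± 57.9. It was the least reduced of these 3, by a difference of -2.67 ± 0.16 (-4.45 before normalization).

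Of the plus-strand members detected on both arrays, miR-291a-5p differed most. Its signal was 1.79 ± 0.47 in KPC-exosomes, where only 1 of its 4 probes was detected, and 2198 ± 187 in MPDC-exosomes. The difference was -8.05 ± 0.40 after normalization and -10.3 before, and it rests on a KPC signal near the lowest detected signal of that array, 1.41. With a detection threshold of 5 errors miR-291a-5p was not detected in KPC-exosomes and the value became a bound, -7.35.

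miR-294-5p and miR-293-5p were detected in MPDC-exosomes only, each with all 4 probes. miR-294-5p had a signal of 732 ± 47.1 there, against a limit of 2.47 in KPC-exosomes, and was at least 65.4-fold lower in KPC-exosomes after normalization (at least 296-fold before). miR-293-5p had a signal of 160 ± 11.6 against a limit of 1.41, and was at least 18.1-fold lower (at least 114-fold before). With mean signals in place of total signals, normexp background correction and an offset of 50, changed together, the bounds were smaller, -2.94 for miR-294-5p and -1.12 for miR-293-5p on the log2 scale.

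miR-291b-5p was the exception on the plus strand. Its signals were 13.7 ± 1.18 and 35.9 ± 2.61, both low, and all 4 of its probes were detected on both arrays. The difference was 0.34 ± 0.16 after normalization and -1.39 before, so its direction turned with the normalization. Before normalization its distance from the median of the 726 miRNAs seen on both arrays was -0.020. miR-291b-5p has the same base as miR-291a-5p at 20 of 22 positions, in 1 run. The longest probes of both are shown, with the bases that also pair with the other miRNA in capitals.
miR-291a-5p probe: aGAGAGGGCCTCCAC
miR-291b-5p probe: gGAGAGGGCCTCC
Thus 14 of 15 bases of the first probe pair with miR-291b-5p and 12 of 13 of the second with miR-291a-5p, and the share of each signal that came from the other miRNA was not tested.

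Both minus-strand members went the other way. miR-290b-5p had a signal of 2760 ± 196 in KPC-exosomes from both of its probes, at 1340 ± 134 and 1420 ± 142. In MPDC-exosomes the same probes gave 2.39 ± 1.02 and 2.50 ± 1.03, below the detection threshold, and their sum, 4.88, was taken as the limit. Against that limit miR-290b-5p was at least 565-fold higher in KPC-exosomes before normalization, and its bound was 7282-fold after. Normalization placed the lowest detected signals, 1.41 in KPC-exosomes and 1.51 in MPDC-exosomes, at 2.19 and -1.36 on the log2 scale. The normalized value is thus no firm lower limit, and over the processing alternatives the log2 bound ran from 9.12 to 15.6. The bound was the highest of the 46 miRNAs detected in KPC-exosomes only, on both scales.

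miR-292b-5p had a signal of 99.1 ± 7.72 in KPC-exosomes and a limit of 3.07 in MPDC-exosomes. It was at least 32.2-fold higher in KPC-exosomes before normalization and its bound was 322-fold after, rank 6 and rank 5 of the same 46 miRNAs. Its log2 bound ran from 4.98 to 10.8 over the alternatives, so the normalized value is no firm lower limit either. Both bounds were taken against the member's own undetected signal in MPDC-exosomes, 4.88 for miR-290b-5p and 3.07 for miR-292b-5p, which normalization placed at -0.52 and -0.85 on the log2 scale. The probes of these 2 members share 11 bases, shown in capitals.
miR-290b-5p probe: AAAGTGCCGCCtagt
miR-292b-5p probe: aAAAGTGCCGCCagg
No probe of either member paired over more than 11 bases with any other of the 1608 array miRNAs that have a RefSeq sequence. The part of the miR-292b-5p signal that came from miR-290b-5p was not tested.

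**Figure D2:**
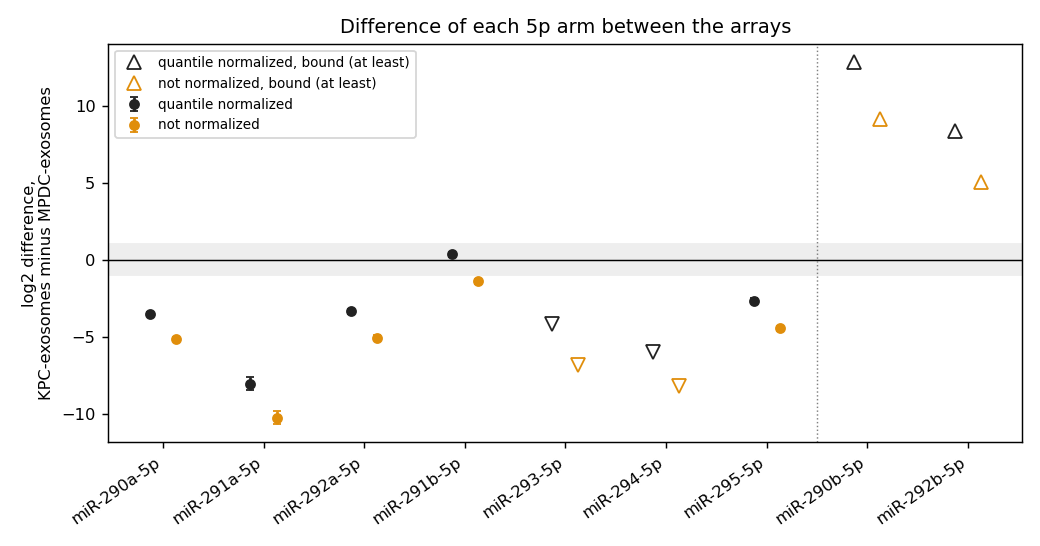
log2 difference of each 5p arm, KPC-exosomes minus MPDC-exosomes, after quantile normalization (black) and before (orange). Bars are scanner errors, open triangles are bounds that point away from 0, and the grey band spans differences under 2-fold. After normalization 6 plus-strand members lay below the band, miR-291b-5p inside it, and both minus-strand members above it.

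Over all 9 members, 6 were at least 2-fold lower and 2 at least 2-fold higher in KPC-exosomes after normalization, beside 24.6% and 31.5% of all miRNAs. Before it 7 were lower and 2 higher, beside 64.8% and 10.1%. The median over the 9 members was -3.37 after normalization and -5.08 before, and over all miRNAs with a value 0.30 (905 miRNAs) and -1.60 (1072 miRNAs). A miRNA detected on 1 array only had no value where its signal did not exceed the limit of the other array. After normalization that limit was at least 2.19 in KPC-exosomes and at least -1.36 in MPDC-exosomes. Mainly miRNAs seen in MPDC-exosomes only were therefore left out. With undetected signals at the floor of 0.1 instead, the median was -0.26 over all 1077 and -3.37 over the members. With a 4-fold threshold the members stayed at 6 lower and 2 higher, and no share over all miRNAs was counted at 4-fold. Outside the cluster, the miRNAs on both arrays whose difference was nearest to the members' median were miR-690 (-3.37), miR-3473f (-3.42) and miR-195a-5p (-3.43), within 0.059 of it over the 2 arrays.

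The repeat spots of each probe gave the spread within an array. The coefficient of variation of detected member probes had a median of 13.6% in KPC-exosomes and 4.25% in MPDC-exosomes. For 27 of the 32 member probes every spot was dimmer in KPC-exosomes than any spot in MPDC-exosomes, and for the 4 probes of the minus-strand members every spot was brighter, against 39.9% and 6.55% of all miRNA probes. The only probe whose spots overlapped was the 10-base probe of miR-291b-5p, from 8.25 to 21.4 in KPC-exosomes and from 21.2 to 25.7 in MPDC-exosomes (processed signal). Spots of 1 array share 1 RNA preparation and are not replicates of a condition.

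The difference of the plus-strand members also depended on which probe measured it. Agilent miRNA probes for 1 miRNA are often nested, starting at the same end and reaching further into the miRNA as they lengthen. The probes of miR-290a-5p are shown with the bases beyond the shortest probe in capitals.
12 bases: aaagtgccccca
13 bases: aaagtgcccccaT
14 bases: aaagtgcccccaTA
15 bases: aaagtgcccccaTAG
In KPC-exosomes these probes gave 19.8, 25.4, 21.3 and 21.9, from the shortest to the longest. In MPDC-exosomes they gave 139, 341, 445 and 2283. The KPC signals were thus flat over the nested probes while the MPDC signals rose, and the difference before normalization went from -2.81 ± 0.21 at 12 bases to -6.70 at 15 bases.

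The other members with at least 2 probe lengths detected on both arrays showed the same order. For miR-292a-5p the difference went from -2.46 at 13 bases, where the signals were 21.1 and 116, to -7.21 at 15 bases, where they were 6.46 and 955. For miR-295-5p it went from -1.46 at 12 bases to -5.07 at 14 bases, and for miR-291b-5p from -0.46 at 10 bases to -2.13 at 13 bases. In all 4 of these members the longest probe differed more than the shortest, by a median of -3.75 (from -4.75 to -1.67). Over the 602 miRNAs with such probes the longest probe was the lower in 56.8% and the median was -0.033, and -4.75, that of miR-292a-5p, was the lowest value of all. Among the 342 of these 602 miRNAs that were at least 2-fold lower in KPC-exosomes before normalization the median was -0.031. All 15 member probes detected on both arrays were dimmer in KPC-exosomes before normalization, by -0.46 to -10.0, so they shared a direction but not a size. The minus-strand probes, detected in KPC-exosomes only, are not among them. The 10-, 11- and 12-base probes of miR-291b-5p differed by -0.46 ± 0.42, -0.50 ± 0.39 and -0.85 ± 0.30. Each was less reduced than the typical shared miRNA, at -1.37. How many of all probes detected on both arrays were dimmer in KPC-exosomes was not counted.

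**Figure D3:**
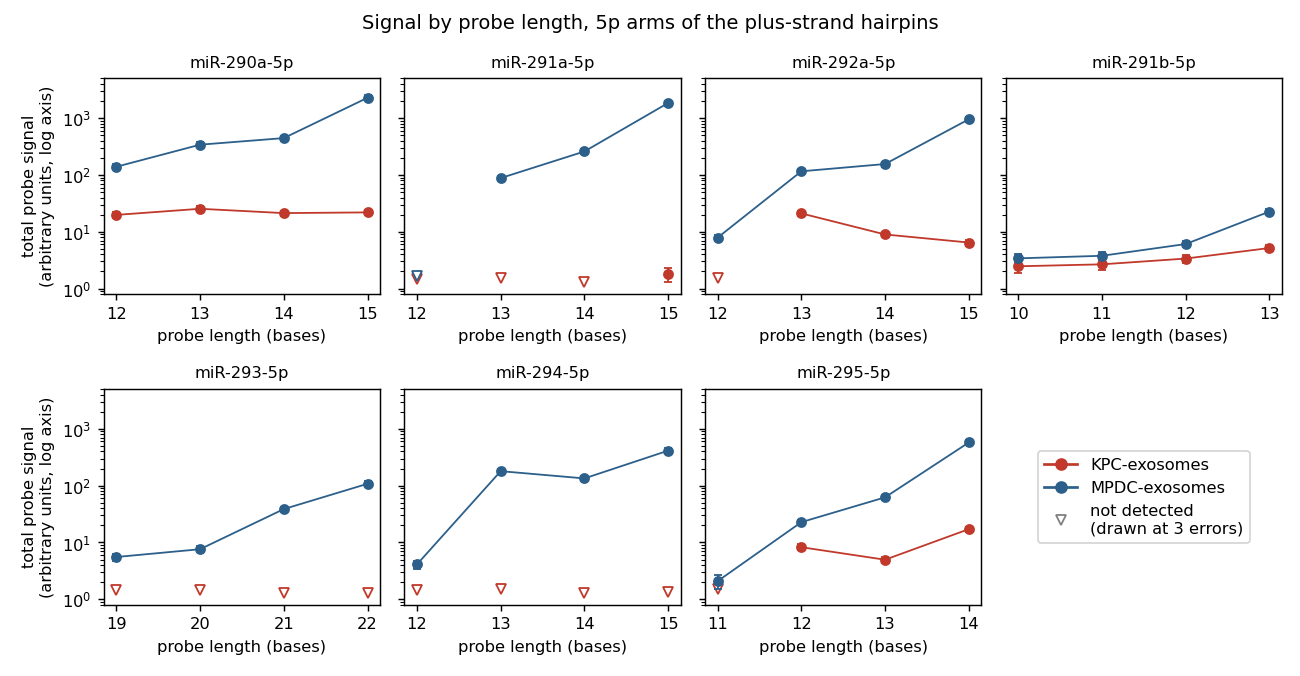
Total probe signal (arbitrary units, log axis, not normalized) against probe length for the 7 plus-strand 5p arms, with KPC-exosomes in red and MPDC-exosomes in blue. Bars are scanner errors, and open triangles mark probes not detected, drawn at 3 errors. For miR-290a-5p the MPDC signals rose from 139 to 2283 with length while the KPC signals stayed between 19.8 and 25.4.

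The 3p arms of the same 9 hairpins were set beside the 5p arms. Of these, 8 were detected in KPC-exosomes and 9 in MPDC-exosomes, 6 were at least 2-fold lower in KPC-exosomes after normalization and 0 higher, and all 9 were at least 2-fold lower before it. The shares over all miRNAs were 41% and 54.8% detected, 24.6% lower after normalization and 64.8% lower before it. Their median difference was -7.59 after normalization, over 8 arms with a value, and -9.32 before. The remainder of this comparison uses values before normalization, where each hairpin's arms share the array and the RNA but not the probes.

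In the hairpin of miR-291a both arms fell to a like extent, by 10.3 ± 0.40 for the 5p arm and 9.55 ± 0.14 for the 3p arm on the log2 scale. The 5p value rests on 1 probe detected in KPC-exosomes, at 1.79, near the lowest detected signal of that array, 1.41. How close these arms are is therefore uncertain. The arms of miR-292a and miR-295 did not match. miR-292a-3p differed by -9.56 and its 5p arm by -5.08, a gap of 4.48 ± 0.21 between the arms. miR-295-3p differed by -9.74 and its 5p arm by -4.45, a gap of 5.29 ± 0.22. The hairpin of miR-290a went the opposite way, its 5p arm (-5.18) differing more than miR-290a-3p (-3.61), with a gap of -1.57 ± 0.21. These gaps are of summed signals, and their errors leave out the spread over the nested probes described above. By probe, miR-290a-5p ran from -2.81 to -6.70, so that its shortest probe differed less than miR-290a-3p and the order of these arms depends on the probe. miR-292a-5p ran from -2.46 to -7.21 and miR-295-5p from -1.46 to -5.07, each probe differing less than the summed 3p arm. For miR-293 and miR-294 the 5p arms had bounds, -6.83 and -8.21 or lower, and so could not be ordered against their 3p arms, at -9.32 and -9.81. In the hairpin of miR-291b the 5p arm differed by -1.39. Its 3p arm, detected in MPDC-exosomes only at a low signal of 10.6, had a bound of -2.91 or lower. The 3p arm of miR-291b thus differed more, by at least 1.52.

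In the minus-strand hairpins the arms lay on opposite sides of 0 before normalization, where the median difference of the 726 shared miRNAs was -1.37. miR-290b-3p was detected on both arrays, at 30.0 ± 2.50 in KPC-exosomes and 78.8 ± 5.77 in MPDC-exosomes. Its difference was -1.40, whereas miR-290b-5p was at least 9.14 higher in KPC-exosomes. miR-292b-3p was also detected on both, at 30.0 ± 2.51 and 82.1 ± 6.0, a difference of -1.45, whereas miR-292b-5p was at least 5.01 higher. Counted from that median instead of 0, miR-290b-3p lay at -0.023 and miR-292b-3p at -0.080. These 3p arms thus differed about as much as the typical shared miRNA. After normalization the 3p arms turned to 0.45 and 0.42, within 2-fold. The plus-strand arm that is complementary to miR-290b-5p, miR-290a-3p, had a signal of 11.8 ± 1.11 in KPC-exosomes and 144 ± 10.3 in MPDC-exosomes, opposite in direction to miR-290b-5p.

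**Figure D4:**
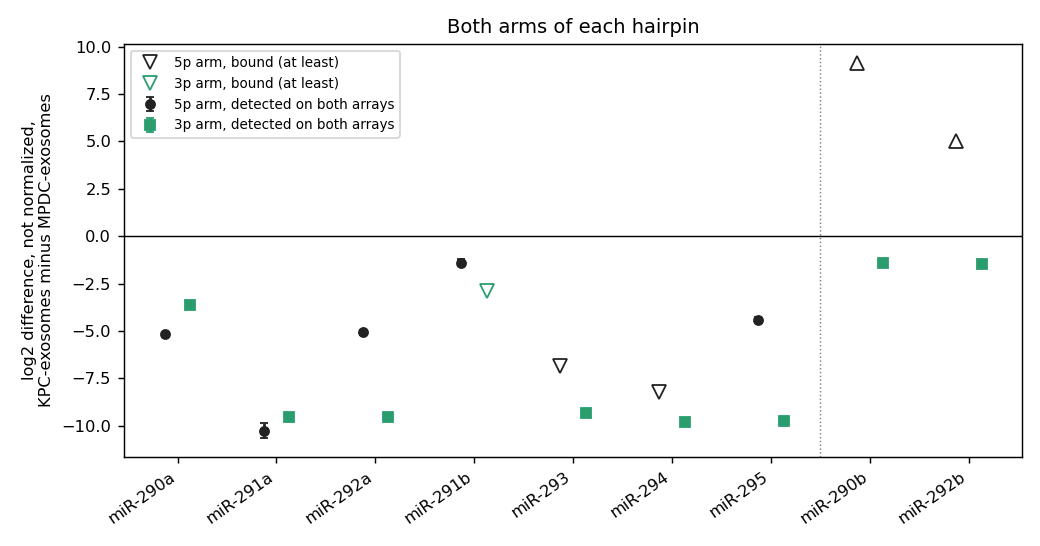
log2 difference before normalization, KPC-exosomes minus MPDC-exosomes, of the 5p arm (black circles) and the 3p arm (green squares) of each hairpin. Bars are scanner errors, and open triangles are bounds. The arms lay close together for miR-291a, over 4 units apart for miR-292a and miR-295, and on opposite sides of 0 for miR-290b and miR-292b. miR-290b-3p and miR-292b-3p lay near -1.37, the median difference of the 726 shared miRNAs.

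Markers of the cell types were read on the same arrays. The miR-302/367 cluster, the other miRNA cluster typical of mouse pluripotent cells, followed the plus-strand members, with all 5 of its listed miRNAs (miR-302a-3p, miR-302b-3p, miR-302c-3p, miR-302d-3p and miR-367-3p) detected in MPDC-exosomes only and a summed signal of 1809. The let-7 family, which accumulates as cells differentiate, went the other way. Its 8 members summed to 16714 in KPC-exosomes against 4416 in MPDC-exosomes. The brightest in KPC-exosomes were let-7b-5p (5388 against 75.6) and let-7c-5p (4091 against 638). The family's median difference was 3.04 after and 1.51 before normalization, beside 0.30 and -1.60 over all miRNAs with a value. After normalization all 8 were at least 2-fold higher, and before it 5 were, with let-7g-5p at -0.11. Of the pancreas list, miR-216a-5p, miR-216b-5p and miR-375-3p were detected on neither array, miR-148a-3p by the MPDC-exosome array alone and miR-217-5p by the KPC-exosome array alone. The list was for pancreas, not for duct cells, and the identity of the lines was not tested. Of 7 epithelial miRNAs, 5 were detected in KPC-exosomes and 7 in MPDC-exosomes, with summed signals of 98.8 and 1781. None of the 5 mesenchymal miRNAs was detected in KPC-exosomes and all 5 in MPDC-exosomes, where their sum was 226, and 6 of 7 blood cell miRNAs were detected on each array, with sums of 735 and 654. The weakest mesenchymal miRNA, miR-145a-5p at 7.79, had no bound after normalization. Of all miRNAs, 41% were detected in KPC-exosomes and 54.8% in MPDC-exosomes. Of those detected on at least 1 array, 28.3% were seen in MPDC-exosomes only and 4.27% in KPC-exosomes only. The part of these markers in the difference of the members was not tested.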

How the data were processed

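Each array carried 58594 spots, 56430 of them for 4415 probes of 1881 miRNAs, with none saturated on either array. The deposited scanner files came from Agilent's Feature Extraction software (10.7.1.1 per the file headers, 9.1 per the submitters' processing notes). The deposited total signals, errors, processed signals, mean signals and background signals are intensities on a linear scale, with the background subtracted from total and processed signals by the scanner software (both reach values below 0) and no scaling between arrays. Outlier flags, another deposited column, removed spots from the spot ranges and from the processed-signal alternative. A deposited table gives 1 log2 value per miRNA and array, which the authors normalized in GeneSpring by a method not given in the sources used here.

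For each miRNA, total signals of probes above 3 errors were summed, undetected miRNAs were set to a floor of 0.1, and log2 values were quantile normalized over the 1881 miRNAs and 21 control features. The result was within 1.1e-05 of the deposited log2 values. Errors of probes were combined in quadrature. Calls required a difference of at least 2-fold, with bounds for miRNAs detected on 1 array. The carried total per miRNA in the scanner files was not used.

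Samples were grouped by their titles. The members, the marker lists and the rule for named miRNAs (the members, their 3p arms where arms or overlapping probes are compared, miRNAs sharing a seed, the 3 nearest outside the cluster, and marker list members) were chosen with earlier results of these arrays known. With 1 array per group there was no test, and the number of arrays limits the precision. Alternatives changed the normalization, the background correction, the summary over probes, the detection threshold, the treatment of undetected signals and the fold threshold. The normalization and calls were tested on simulated arrays built from the MPDC signals, with the same miRNAs detected on both. The bounds were checked on a small made-up example only. The effect of unequal detection between the arrays, as seen here, was therefore not tested. The label protocol names a kit for amplified cRNA, and how such labelling would affect miRNA signals was not tested. The header names the mm9 build, which was not used, and mature sequences and positions are from RefSeq on GRCm38.p6. Python 3.11.15 with numpy 2.4.6 and pandas 2.3.3, R 4.3.3 with limma 3.58.1 and matplotlib 3.10.9 were used.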

Additional observations from a re-analysis of the deposited data

How the results depend on the processing

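Over 14 alternatives to the normalization, background correction, probe summary, detection threshold and treatment of undetected signals, 6 or 7 members were at least 2-fold lower and 2 at least 2-fold higher in KPC-exosomes in each, and a 4-fold threshold also gave 6 and 2. Over all miRNAs the counts were not stable. Those called lower ran from 159 of 1077 with normexp to 706 of 1077 with the spike-in controls. Those called higher ran from 108 of 1077 with the spike-in controls to 367 of 1160 with detection above 2 errors. At 4-fold no count over all miRNAs was made. Detection above 2 errors found 8 members in KPC-exosomes and 8 in MPDC-exosomes, and above 5 errors 6 and 7. Of all miRNAs, 1160 and 961 were then detected on at least 1 array. The median difference of the members, -3.37, was -5.08 with no normalization and -5.11 when the 4 spike-in controls set the scale, where the median over all miRNAs moved by -1.90 and -1.92. It was -2.18 with normexp, -3.70 with the processed signal and 75th-percentile scaling, and -3.85 with the brightest probe. Only miR-291b-5p turned, to -1.39 with no normalization, -0.17 with quantiles taken over shared miRNAs alone, -1.42 with the spike-in controls and -0.47 with the brightest probe. The deposited log2 values were 1 of the 14 alternatives and lay within 1.1e-05 of the main values, so they could not move a member. The treatments of undetected signals could not move a member detected on both arrays. With these counted, of 126 values of single members under an alternative, 62 stayed within 2 scanner errors, 60 moved by more with the same sign, and 4 reversed. The cause was not tested. Signals near the floor limit miR-291a-5p and the 4 bounds, which ranged from -8.98 to -1.12 for miR-293-5p, from -11.3 to -2.94 for miR-294-5p, from 9.12 to 15.6 for miR-290b-5p and from 4.98 to 10.8 for miR-292b-5p. No paired analysis was possible because each group had 1 array.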
